A study of Homo sapiens with 12 samples.

Results

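Graphene oxide (GO) and GO carrying the ginsenoside Rg3 (GO–Rg3) were compared at the same dose in Huh7, a cell line from a human hepatocellular carcinoma. Gene by gene, 3 samples kept for 6 h with GO–Rg3 at 400 µg/mL were set against 3 samples kept for 6 h with GO at that dose. A gene entered where 3 or more of the study's 12 samples gave it 10 or more counts, which held for 17092 of the 63677 genes counted. The filter is set on counts alone, and 324 genes lay just inside it (the third highest count was 10) while 346 lay just outside it (the third highest count was 9). The study's other samples were 3 of untreated Huh7 cells, kept in medium alone for the same 6 h and given as the level without material, and 3 treated for 6 h with 100 µg/mL GO–Rg3 that also carried doxorubicin, which are not compared because their dose differs.

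GO is a sheet of oxidized carbon whose surface and edges hold oxygen groups, and it is studied as a carrier for drugs. Ginsenoside Rg3 is a steroid-like saponin of ginseng. In the study's preparation it was joined to GO by ester bonds, by heating both with sulfuric acid and washing the product to neutral pH. GO–Rg3 therefore differs from GO by the attached Rg3 and also by the acid and heat of the coupling. The materials were not matched in sheet size, thickness or surface charge, and the part of these was not tested. GO taken through that treatment without Rg3, or free Rg3, was not analysed here. The sources used here do not say whether 400 µg/mL counts the sheet alone or the sheet with its Rg3. All samples came from 1 cell line, and the labels do not say whether replicates were separate cultures, so the p-values measure the spread between these samples, which may be technical.

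Levels are in CPM, a gene's counts as parts of the library total scaled to 1000000 with the TMM factors of edgeR. They are given for replicates 1, 2 and 3 of a group in that order or as mean ± SD (n = 3). A difference is the log2 of the GO–Rg3 level over the GO level with its standard error (SE), from the quasi-likelihood test of edgeR, with p-values adjusted by the Benjamini-Hochberg method over all 17092 genes. A gene passed at an adjusted p under 0.01, and was called where the absolute log2 difference was also above 1. Library totals ran from 27802871 to 34755740 counts in the 6 samples, so that 1 CPM stood for 25.5 to 38.9 counts. In bulk RNA, fewer cells with a transcript and less of it per cell cannot be told apart. Reads carried no molecular identifiers, and limits drawn from counts cover counting error only. All 12 hepatocyte markers examined were above 1 CPM in each of the 9 untreated, GO and GO–Rg3 samples. Of 12 markers of blood, endothelial and stromal cells, 8 stayed below 1 CPM in all 9, PECAM1 was at 0, and LYZ, the lysozyme gene, was the highest, at 124 ± 8.998 CPM after GO and 121 ± 10.3 CPM after GO–Rg3.

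Libraries differed within groups, and GO replicate 1 stood furthest apart in its share of mitochondrial counts. Genes of the mitochondrial genome held 24.1%, 12.1% and 14.8% of the counts in the GO samples, against 6.89%, 7.40% and 7.42% in the GO–Rg3 samples and 5.31%, 5.84% and 6.28% in the untreated ones. GO replicate 1 held the highest share, and the 3 groups did not overlap. By its 23737 detected genes, GO replicate 1 is the sample with the lowest RNA integrity number in the study's quality table. The part of RNA quality in the differences was not tested. List medians that moved by over 1.5 times when a GO or GO–Rg3 library was left out are followed by their range over these fits, with the library named. Gene differences also moved with base composition: over the 16622 genes with a transcript GC content, Spearman's rho between GC content and the log2 difference was -0.44, a description across genes, which are not independent replicates.

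**Figure D1:**
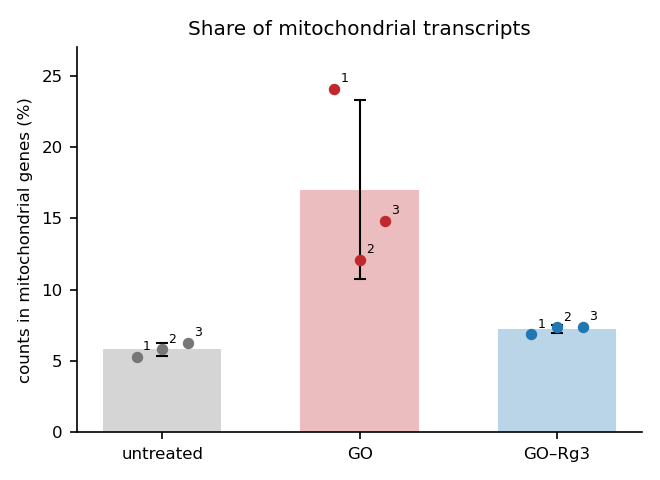
Percent of all counts that fell in genes of the mitochondrial genome (y axis) in untreated, GO and GO–Rg3 samples. Points are samples with their replicate number, bars are means and error bars are SD (n = 3); the GO samples reached 24.1%, 12.1% and 14.8%, and no GO–Rg3 sample was above 7.42%.

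The lists whose medians lay furthest from 0 in the comparison of GO–Rg3 with GO were the metallothioneins with the zinc exporter (median log2 difference 3.11), the alpha-arrestins (-1.48), the proteins encoded by the mitochondrial genome (-1.40) and the hypoxia targets (-0.95). With MT1M, which had no count after GO, set at a floor of 3 counts, the first median was 2.75. Lists and members were chosen with earlier results of these data known. Their medians and passing counts therefore describe the data and are not independent support. 120 genes were called higher after GO–Rg3 than after GO (0.702% of those tested) and 353 were called lower (2.07%), 473 in all (2.77%). Without the fold threshold, 1253 genes passed as higher (7.33%) and 1068 as lower (6.25%), 13.6% of genes in all. Counts of list members that passed are to be read beside these shares. GO–Rg3 lay above GO without overlap at 120 of the 120 genes, beside 20.1% of all genes tested, and below it without overlap at 352 of the 353, beside 18.9% of all genes. The called genes were chosen on these same samples, so the lack of overlap largely follows from the choice and adds no support to the calls. With library totals in place of TMM factors, the calls were 220 higher and 231 lower, so the share of higher calls moved from 25.4% to 48.8%, and the median of all genes moved from -0.02 to 0.12 on the log2 scale. The number of higher calls was 77 without GO replicate 1, 198 without GO replicate 2 and 182 without GO–Rg3 replicate 1. The smallest number of lower calls, 257, came without GO–Rg3 replicate 3. A fit of the 6 samples alone called 76 higher and 204 lower.

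**Figure D2:**
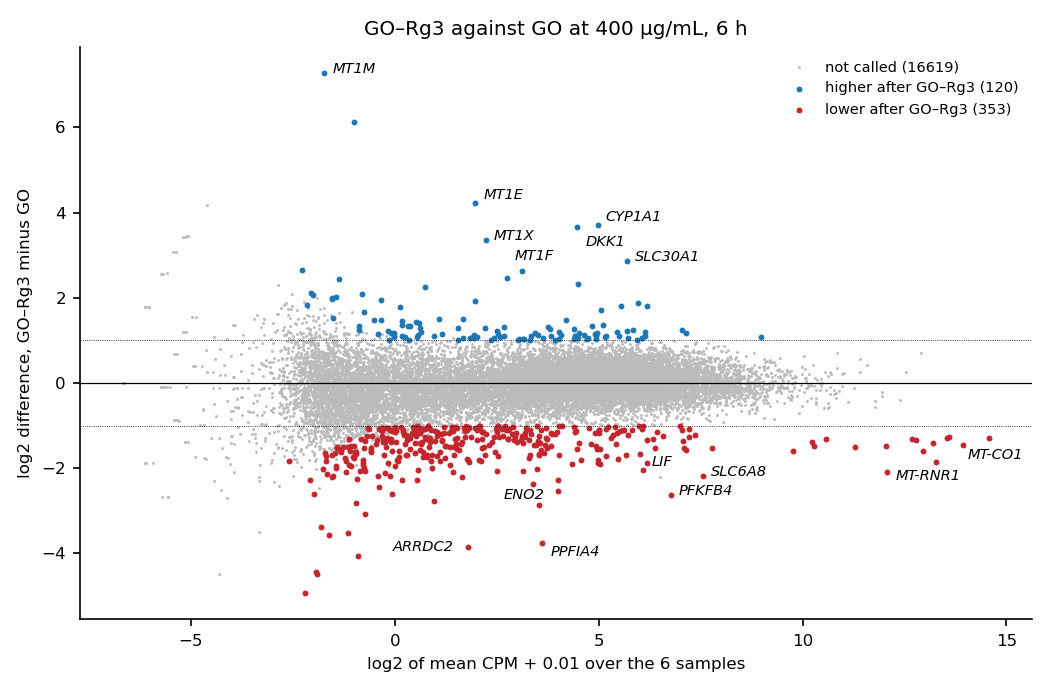
Log2 difference of GO–Rg3 from GO (y axis) against the log2 of the mean CPM over the 6 samples plus 0.01 (x axis), 1 point per gene tested. The 120 genes called higher are blue and the 353 called lower are red, dotted lines mark a log2 difference of 1 either way, and the fitted values of genes with no count in 1 group, such as MT1M, depend on edgeR's prior count.

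Metallothioneins are small cysteine-rich proteins that bind zinc and copper, and SLC30A1 is the transporter that moves zinc out of the cell. Both are textbook targets of MTF1, a transcription factor that is activated by zinc and binds short metal response elements in promoters. The level of SLC30A1 (GRCh37 chr1:211744910-211752503) was 11.7, 13.8 and 11.7 CPM after GO and 85.9, 99.6 and 85.6 CPM after GO–Rg3, beside 82.8, 82.1 and 79.2 CPM in untreated cells. Every GO–Rg3 sample lay above every GO sample and near or above the untreated ones, a log2 difference of 2.86 ± 0.11, adjusted p = 5.1e-10. MT2A, the main metallothionein of most tissues, read 8.58, 6.50 and 7.58 CPM after GO, 60.4, 19.7 and 33.2 CPM after GO–Rg3 and 44.3, 33.1 and 38.4 CPM without material. Its GO–Rg3 samples were spread over a wide range but all lay above the GO samples, with a difference of 2.33 ± 0.29, adjusted p = 8.0e-05.

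Of the 13 genes on this list 6 passed the filter, and these were each called higher (MT1E, MT1F, MT1M, MT1X, MT2A and SLC30A1). Their median log2 difference was 3.11, against -0.02 over all genes, of which 0.702% were called higher. MT1F stood at 2.90, 1.85 and 2.60 CPM after GO and 19.2, 11.7 and 14.3 CPM after GO–Rg3 (log2 2.64 ± 0.20, adjusted p = 5.0e-07), MT1X at 0.828 ± 0.0347 and 8.53 ± 1.64 CPM (log2 3.37 ± 0.24, adjusted p = 3.2e-07) and MT1E at 0.398 ± 0.0802 and 7.43 ± 2.98 CPM (log2 4.22 ± 0.32, adjusted p = 7.0e-07). The 3 GO samples held no count of MT1M, which reached 0.676, 0.450 and 0.618 CPM after GO–Rg3. MT1M passed the filter through other groups alone, GO–Rg3 among them, so its call adds no support. With 10 counts asked of every sample, MT1M was left out. The list then had 5 members passing, all as higher, and a median of 2.84. Against a floor of 3 counts per library MT1M was at least 6.17-fold higher after GO–Rg3, and with MT1M at that bound the list's median was 2.75. The metallothionein genes are near-identical in sequence and reads can be shared among them, so the division of counts between MT1E, MT1F, MT1M and MT1X is uncertain. The untreated means were 20.1 ± 0.444 CPM for MT1F, 12.1 ± 0.707 CPM for MT1X, 10.9 ± 1.71 CPM for MT1E and 0.909 ± 0.291 CPM for MT1M. In these 4 genes and MT2A the fitted level after GO–Rg3 was below that of untreated cells, but none of these differences passed. Their adjusted p ran from 0.20 for MT1X to 0.98 for MT2A. MT2A differed by log2 -0.03, and its GO–Rg3 samples lay on both sides of the untreated ones. The list's median against untreated cells was -3.46 for GO and -0.46 for GO–Rg3. The summed level of the list, to which SLC30A1 and MT2A gave the most, was 23.2 to 24.5 CPM after GO, 143 to 187 CPM after GO–Rg3 and 157 to 175 CPM in untreated cells. Each of these calls held when any 1 of the 6 libraries was left out.

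The promoters of these genes are shown because their transcripts moved together. RefSeq's table of promoters held 3 of the 6, and the 250 bases before the start site are given 5′ to 3′ for MT2A (GRCh38.p14 chr16:56608334-56608583, plus strand) and SLC30A1 (GRCh38.p14 chr1:211579162-211579411, minus strand), with matches to the core of the metal response element (TGCACNC or TGCGCNC, either strand) in capitals.
MT2A: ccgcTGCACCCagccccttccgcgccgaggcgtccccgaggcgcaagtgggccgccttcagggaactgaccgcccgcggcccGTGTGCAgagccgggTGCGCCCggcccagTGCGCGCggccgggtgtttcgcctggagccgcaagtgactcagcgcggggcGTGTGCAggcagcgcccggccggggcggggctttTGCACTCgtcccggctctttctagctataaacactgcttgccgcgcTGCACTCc
SLC30A1: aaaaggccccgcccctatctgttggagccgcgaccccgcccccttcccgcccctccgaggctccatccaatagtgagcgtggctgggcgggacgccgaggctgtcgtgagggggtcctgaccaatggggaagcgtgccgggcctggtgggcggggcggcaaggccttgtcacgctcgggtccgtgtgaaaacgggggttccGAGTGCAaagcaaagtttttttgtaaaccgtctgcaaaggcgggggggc
MT2A held 7 matches, MT1X held 4 and SLC30A1 held 1 in this window. The table covers 27305 genes, and of their promoters 24.7% held at least 1 match and 1.56% held 3 or more. Among the promoters of tested genes these shares were 32.6% and 2.14%; a match is a run of letters and not a measured site.

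Among called genes with non-overlapping groups and a mean of at least 5 CPM, the largest rises were those of CYP1A1 and DKK1. CYP1A1, the cytochrome P450 that oxidizes polycyclic aromatic compounds and the best known target of the aryl hydrocarbon receptor AHR, lies at GRCh37 chr15:75011883-75017877. It read 5.25, 4.25 and 3.96 CPM after GO, 58.8, 57.7 and 58.3 CPM after GO–Rg3 and 197, 201 and 208 CPM in untreated cells. The groups formed 3 separate levels with GO–Rg3 in between, 13.1-fold above GO (log2 3.71 ± 0.11, adjusted p = 2.3e-11) and below untreated cells (log2 -1.79 ± 0.10, adjusted p = 1.3e-07). DKK1, a secreted inhibitor of Wnt signalling (GRCh37 chr10:54074041-54077802), read 2.90, 3.37 and 3.42 CPM after GO, 34.7, 46.2 and 42.6 CPM after GO–Rg3 and 90.2, 90.2 and 92.6 CPM without material. It too lay at 3 separate levels, with log2 3.66 ± 0.14, adjusted p = 5.1e-10 against GO and log2 -1.14 ± 0.12, adjusted p = 9.5e-04 against untreated cells; the latter missed the threshold without untreated replicate 3 (adjusted p = 0.012). DKK1 overlaps the antisense gene PRKG1-AS1, and whether the counting used the strand is not given in the sources used here.

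Of 9 genes tested on the list of AHR and its targets, CYP1A1, AHR and NQO1 passed as higher and none passed as lower. The share higher was 33.3%, beside 7.33% of all genes. The list's median was 0.28 (0.14 without GO–Rg3 replicate 2 to 0.48 without GO–Rg3 replicate 1, and 0.45 without GO replicate 1). AHR itself went from 69.0 ± 19.6 CPM after GO to 111.4 ± 10.4 CPM after GO–Rg3 (log2 0.69 ± 0.17, adjusted p = 0.0078), and NQO1, a quinone reductase, from 299.8 ± 17.4 to 399.9 ± 22.02 CPM (log2 0.42 ± 0.09, adjusted p = 0.0030). AHR missed the threshold without GO replicate 3 or GO–Rg3 replicate 2 or 3 (adjusted p up to 0.029), and NQO1 without GO replicate 3 or GO–Rg3 replicate 3 (adjusted p up to 0.019), so that 1 of 9 passed when GO replicate 3 or GO–Rg3 replicate 3 was left out. Among 28 cytochrome P450 genes, 3 passed as higher (CYP1A1, CYP2C8 and CYP39A1) and 2 as lower. These were 10.7% and 7.14%, near the 7.33% and 6.25% of all genes. The median of the 28 was 0.14 (0.04 without GO–Rg3 replicate 3 to 0.18 without GO–Rg3 replicate 1, 0.07 without GO replicate 1, and 0.07 with an offset for GC content). The 2 became 0 without GO replicate 3, 1 without GO–Rg3 replicate 2 or 3, and 0 with library totals and in the fit of the 6 samples alone. CYP2C8, an enzyme of drug and fatty acid oxidation, rose from 0.947 ± 0.0408 to 2.19 ± 0.325 CPM (log2 1.20 ± 0.18, adjusted p = 3.3e-04), and CYP39A1, an oxysterol hydroxylase, from 4.94 ± 0.968 to 8.94 ± 0.809 CPM (log2 0.85 ± 0.17, adjusted p = 0.0026). CYP4F3, which hydroxylates leukotriene B4, fell from 7.04 ± 0.883 to 3.97 ± 0.722 CPM (log2 -0.83 ± 0.17, adjusted p = 0.0026). CYP39A1 missed the threshold without GO replicate 3 or GO–Rg3 replicate 2 or 3 (adjusted p up to 0.015) and CYP4F3 without GO replicate 3 (adjusted p = 0.015).

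**Figure D3:**
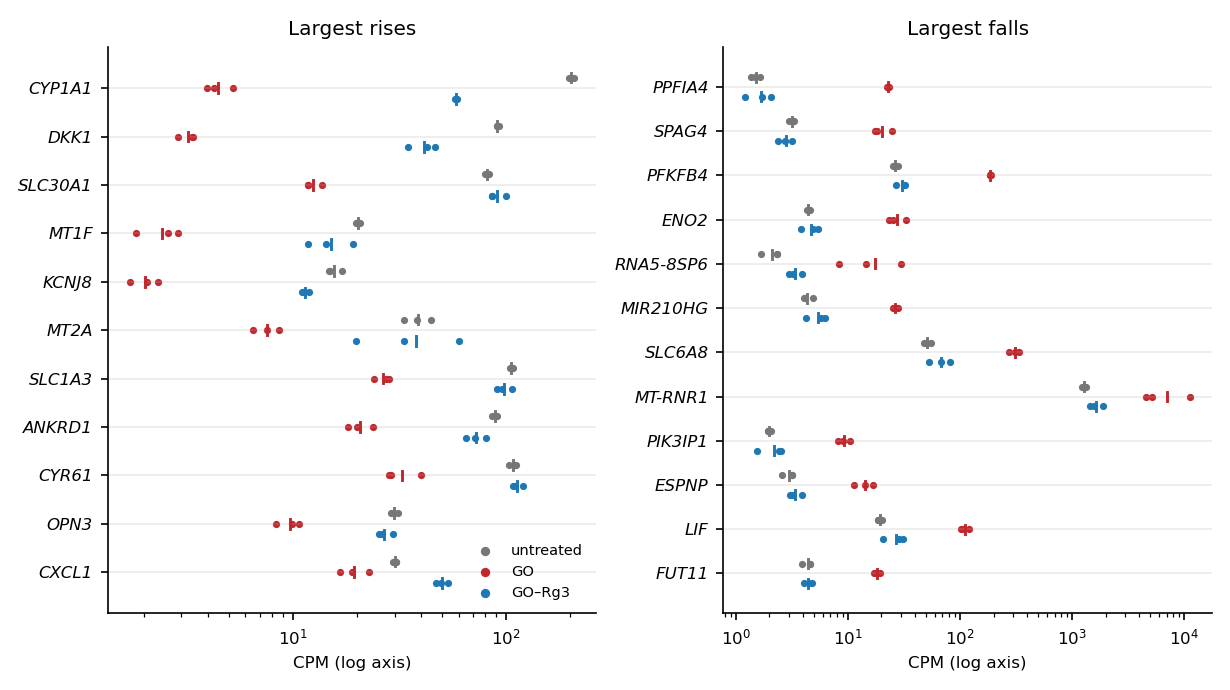
CPM on a log axis for 11 of the 12 largest rises (left) and the 12 largest falls (right) among called genes with non-overlapping groups and a mean of at least 5 CPM over the GO and GO–Rg3 samples. Points are samples and ticks are group means; in both panels GO (red) stands apart from GO–Rg3 (blue), and CYP1A1 and DKK1 also show GO–Rg3 below untreated cells (grey).

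The other large rises were of genes with varied roles. KCNJ8, a subunit of an ATP-sensitive potassium channel, read 1.72, 2.33 and 2.07 CPM after GO and 11.3, 11.9 and 11.1 CPM after GO–Rg3 (log2 2.47 ± 0.14, adjusted p = 3.4e-08). SLC1A3, a glutamate and aspartate transporter, read 24.0, 27.3 and 28.2 and 90.3, 107 and 95.9 CPM (log2 1.88 ± 0.10, adjusted p = 1.9e-08). Neither gene's groups overlapped. OPN3, an opsin, rose from 9.67 ± 1.21 to 26.9 ± 2.23 CPM (log2 1.47 ± 0.12, adjusted p = 1.1e-06). KCNJ8, SLC1A3 and OPN3 overlap antisense genes, and their counts are uncertain for the reason given for DKK1. OPN3 also overlaps CHML on its own strand. Of the 94 genes whose difference from GO is given, 34 overlap a gene on the opposite strand and 21 one on the same strand, and the counts of these are uncertain to the extent that reads are shared.

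Targets of the hypoxia-inducible factors, which cells switch on when oxygen or iron is short and which cover glycolysis, angiogenesis and pH control, were lower after GO–Rg3 than after GO. PFKFB4, an enzyme that regulates the rate of glycolysis (GRCh37 chr3:48555117-48599448), read 189, 187 and 185 CPM after GO, 32.6, 27.0003 and 31.6 CPM after GO–Rg3 and 26.3, 28.04 and 25.6 CPM in untreated cells. The GO samples lay far above both other groups, with log2 -2.62 ± 0.11, adjusted p = 8.7e-10. PPFIA4, a liprin scaffold protein (GRCh37 chr1:202995619-203047868), read 22.5, 23.4 and 23.0 CPM after GO, 1.73, 1.22 and 2.06 CPM after GO–Rg3 and 1.38, 1.66 and 1.48 CPM without material. Its GO–Rg3 and untreated samples shared a range, and the difference from GO was log2 -3.76 ± 0.16, adjusted p = 8.7e-10.

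Of 22 hypoxia targets tested, 20 passed as lower (90.9%, beside 6.25% of all genes) and none as higher. Of these 20, 10 were called, and the list's median difference was -0.95. ENO2, a glycolytic enolase, fell from 27.3 ± 5.32 to 4.71 ± 0.836 CPM (log2 -2.53 ± 0.18, adjusted p = 3.6e-07), and PDK1, the kinase that turns off pyruvate dehydrogenase, from 49.5 ± 10.9 to 14.1 ± 1.63 CPM (log2 -1.82 ± 0.15, adjusted p = 1.1e-06). NDRG1, the most abundant member, fell from 810.3 ± 13.2 to 451 ± 35.6 CPM (log2 -0.85 ± 0.09, adjusted p = 1.5e-05) beside 445 ± 11.1 CPM in untreated cells. VEGFA, the main growth factor of blood vessels, fell from 176 ± 12.3 to 118.3 ± 9.20 CPM (log2 -0.57 ± 0.11, adjusted p = 0.0023), and missed the threshold without GO replicate 3 or GO–Rg3 replicate 3 (adjusted p up to 0.013). The list's median against untreated cells was 0.83 for GO and 0.07 for GO–Rg3; both values share the untreated samples. With any 1 library left out, 16 to 20 members passed as lower, and the count was 15 with library totals. With an offset for GC content 20 passed as lower and the median was -0.97.

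PPFIA4 (GRCh38.p14 chr1:203026241-203026490, plus strand) and PFKFB4 (GRCh38.p14 chr3:48556804-48557053, minus strand) are shown with the 250 bases before their start sites because they fell furthest on the list, with matches to the core of the hypoxia response element (ACGTG or GCGTG, either strand) in capitals.
PPFIA4: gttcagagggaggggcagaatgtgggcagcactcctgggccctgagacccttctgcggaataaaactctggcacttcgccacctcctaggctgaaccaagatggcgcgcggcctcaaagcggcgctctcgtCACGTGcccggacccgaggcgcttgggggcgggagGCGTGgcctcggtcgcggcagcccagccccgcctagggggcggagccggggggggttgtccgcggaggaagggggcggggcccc
PFKFB4: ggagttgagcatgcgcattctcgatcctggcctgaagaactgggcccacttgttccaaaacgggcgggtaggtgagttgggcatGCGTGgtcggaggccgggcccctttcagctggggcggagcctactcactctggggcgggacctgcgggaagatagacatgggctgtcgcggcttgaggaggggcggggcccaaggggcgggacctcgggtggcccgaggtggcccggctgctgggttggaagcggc
The window of PPFIA4 held 3 matches, of which both strands of CACGTG make a pair that overlaps, and that of PFKFB4 held 1. RefSeq's table held 19 of the 22 hypoxia targets tested, and 15 had at least 1 match. Over all 27305 promoters the share was 43.1%, and among the promoters of tested genes it was 56.1%.

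Other large falls joined them. SPAG4, a protein of the nuclear envelope, read 25.1, 17.4 and 18.4 CPM after GO and 2.41, 2.76 and 3.19 CPM after GO–Rg3 (log2 -2.86 ± 0.16, adjusted p = 3.0e-08). SLC6A8, the creatine transporter, read 341, 278 and 310.5 and 82.1, 52.8 and 67.8 CPM (log2 -2.20 ± 0.15, adjusted p = 2.0e-07). MIR210HG, the host transcript of the hypoxia-induced microRNA miR-210, read 28.2, 25.1 and 26.1 and 6.24, 4.28 and 5.74 CPM (log2 -2.28 ± 0.14, adjusted p = 1.1e-07). In each of them the lowest GO sample lay well above the highest GO–Rg3 sample. LIF, a cytokine of the IL-6 family, fell from 110.3 ± 9.20 to 26.7 ± 5.21 CPM (log2 -2.05 ± 0.14, adjusted p = 2.5e-07). PIK3IP1, an inhibitor of PI3 kinase, fell from 9.23 ± 1.12 to 2.18 ± 0.551 CPM (log2 -2.07 ± 0.17, adjusted p = 1.4e-06), and FUT11, a fucosyltransferase, from 18.1 ± 1.09 to 4.45 ± 0.379 CPM (log2 -2.02 ± 0.12, adjusted p = 8.2e-08). The remaining large falls were MT-RNR1, described below, and 2 pseudogenes that are given by number only.

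The mitochondrial genome encodes 13 proteins of the respiratory chain and ATP synthase. All 13 transcripts were called lower after GO–Rg3 than after GO, beside 2.07% of all genes. Their log2 differences ran from -1.61 to -1.28, with a median of -1.40. MT-CO1, the most abundant, a core subunit of cytochrome c oxidase, read 51043, 23196 and 29212 CPM after GO, 13347, 14195 and 14522 CPM after GO–Rg3 and 10368, 12009.6 and 12843 CPM in untreated cells. GO replicate 1 was the highest, every GO sample lay above every other sample, and the difference was log2 -1.30 ± 0.25, adjusted p = 0.0018. MT-CYB, of complex III, differed by log2 -1.59 ± 0.25, adjusted p = 5.3e-04 and MT-ND1, of complex I, by log2 -1.48 ± 0.25, adjusted p = 8.7e-04. MT-RNR1, the small ribosomal RNA of mitochondria, read 11285, 4570.2 and 5153 CPM after GO and 1463, 1889 and 1568 CPM after GO–Rg3 (log2 -2.09 ± 0.29, adjusted p = 1.9e-04). MT-ND4L (log2 -1.498 ± 0.26, adjusted p = 9.6e-04) and MT-ATP8 (log2 -1.61 ± 0.33, adjusted p = 0.0030) overlap a neighbour on the same strand, so their share of reads is uncertain.

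Without GO replicate 1, 12 of the 13 passed, 3 were called and the median was -0.92, while it was -1.66 without GO replicate 2. Without GO–Rg3 replicate 3 the number passing was 7, and in the fit of the 6 samples alone it was 3, with medians of -1.40 in both. MT-ATP8 missed the threshold without GO–Rg3 replicate 2 or 3 (adjusted p up to 0.017).

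Among nuclear genes of the same complexes, of 38 complex I subunits and 11 cytochrome c oxidase subunits, none passed in either direction, with median differences of -0.17 and -0.26. Those medians ran from -0.30 and -0.39 without GO replicate 2 to 0.01 and 0.05 without GO replicate 1. Both materials stood below untreated cells at the median: complex I subunits by log2 -0.30 after GO and -0.40 after GO–Rg3, and cytochrome c oxidase subunits by -0.38 and -0.58. The most abundant, NDUFV1 and COX4I1, read 408 ± 44.6 and 254 ± 54.8 CPM after GO and 341 ± 78.8 and 231 ± 4.36 CPM after GO–Rg3. NDUFA4, a small subunit of the respiratory chain, read 176, 108 and 107 CPM after GO, 96.0, 154 and 141 CPM after GO–Rg3 and 279, 301 and 296 CPM without material. The GO and GO–Rg3 samples overlapped (log2 0.00, 95% CI -0.38 to 0.39), and GO–Rg3 lay below untreated cells by log2 -1.16 ± 0.18, adjusted p = 0.0090, which missed the threshold in 6 of 9 fits without 1 library, at adjusted p up to 0.066.

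Among ribosomal protein genes, the cytosolic list gave a similar picture and the mitochondrial list did not. None of the 79 cytosolic members passed, with a median of -0.17 that turned to 0.15, with 5 members higher, without GO replicate 1, and to 0.01 with library totals. Without GO replicate 2 that median was -0.30. Their medians against untreated cells were -0.49 for GO and -0.59 for GO–Rg3, and RPSA, the most abundant, read 1897 ± 353 and 2243 ± 145 CPM. Of 75 mitochondrial ribosomal proteins, encoded in the nucleus, 11 passed as higher (14.7%, beside 7.33% of all genes) and none as lower. The median of the 75 was 0.14 (0.03 without GO replicate 2 to 0.23 without GO replicate 1). MRPL42 rose from 31.5 ± 4.33 to 58.2 ± 9.75 CPM (log2 0.89 ± 0.14, adjusted p = 6.2e-04) and MRPL50 from 19.95 ± 2.24 to 33.6 ± 6.76 CPM (log2 0.75 ± 0.14, adjusted p = 0.0015), while with an offset for GC content MRPL50 missed the threshold (log2 0.40, adjusted p = 0.026). The 11 became 5 without GO replicate 2, 3 without GO replicate 3, 6 without GO–Rg3 replicate 2, 3 without GO–Rg3 replicate 3 and 1 in the fit of the 6 samples alone.

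**Figure D4:**
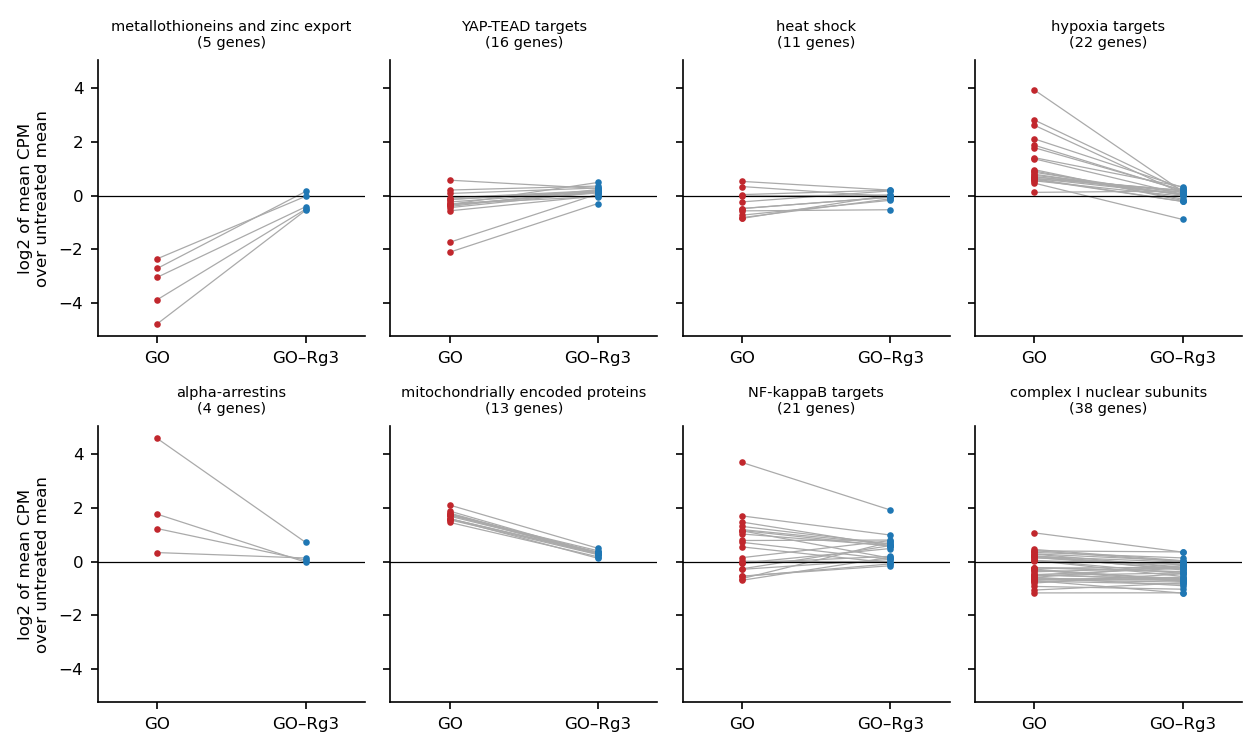
Log2 of a gene's mean CPM after GO (red) and after GO–Rg3 (blue) over its mean in untreated cells (y axis), with a line per gene, for 8 lists; MT1M, with no count after GO, is left out. The fitted list medians for GO and GO–Rg3 were -3.46 and -0.46 for metallothioneins, 0.83 and 0.07 for hypoxia targets and -0.30 and -0.40 for complex I subunits; the materials share the untreated samples.

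YAP and TEAD are the effectors of the Hippo pathway, which responds to cell shape, adhesion and stiffness. Of 16 of their targets tested, 8 passed as higher after GO–Rg3 (50.0%, beside 7.33% of all genes), none passed as lower and 8 did not pass. The median was 0.41. ANKRD1, a nuclear and sarcomeric ankyrin repeat protein, read 23.7, 20.04 and 18.1 CPM after GO, 65.0, 80.6 and 71.5 CPM after GO–Rg3 and 85.6, 91.1 and 89.9 CPM in untreated cells (log2 1.81 ± 0.12, adjusted p = 1.8e-07). CYR61 and CTGF, secreted matricellular proteins, read 40.03, 28.8 and 28.2 and 271, 208 and 218 CPM after GO and 120.0, 108 and 109.97 and 408, 323 and 351 CPM after GO–Rg3. The groups of all 3 genes did not overlap, with log2 1.80 ± 0.14, adjusted p = 6.2e-07 for CYR61 and log2 0.63 ± 0.12, adjusted p = 0.0017 for CTGF. THBS1, a matrix glycoprotein, rose from 161 ± 6.61 to 285 ± 18.2 CPM (log2 0.82 ± 0.09, adjusted p = 2.5e-05). The 8 became 5 without GO replicate 3, when CTGF also missed the threshold (adjusted p = 0.010), and 3 in the fit of the 6 samples alone.

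The BMP and SMAD pathway is used by the liver to set iron uptake and cell fate. Of 11 of its genes tested, 5 passed as higher (45.5%, beside 7.33% of all genes), none passed as lower and 6 did not pass. The median was 0.50, and against untreated cells the medians were -1.25 for GO and -0.65 for GO–Rg3. The feedback inhibitor SMAD7 rose from 13.7 ± 2.10 to 29.4 ± 1.98 CPM (log2 1.10 ± 0.12, adjusted p = 1.8e-05), and the decoy receptor BAMBI from 43.9 ± 3.54 to 90.8 ± 4.27 CPM (log2 1.05 ± 0.09, adjusted p = 3.8e-06). ID1 and ID3 encode inhibitors of helix-loop-helix transcription factors. ID1 rose from 79.2 ± 2.75 to 124.8 ± 24.7 CPM (log2 0.66 ± 0.12, adjusted p = 0.0016). ID3 read 35.4, 45.0 and 47.0 CPM after GO, 67.4, 53.1 and 74.7 CPM after GO–Rg3 and 155, 144 and 159 CPM without material. It was above GO (log2 0.61 ± 0.14, adjusted p = 0.0063) and below untreated cells (log2 -1.23 ± 0.14, adjusted p = 0.0017), though the first difference missed the threshold without GO replicate 1, 2 or 3 or GO–Rg3 replicate 1 or 3 (adjusted p up to 0.041) and the second without any 1 of the untreated samples (adjusted p up to 0.023). ID1 missed the threshold without GO–Rg3 replicate 3 (adjusted p = 0.010), and the 5 became 3 without GO replicate 2 or 3 and 2 without GO–Rg3 replicate 3. In the Wnt list of 10 genes, only DKK1 and LGR5 passed, both as higher. LGR5, a receptor of R-spondins, rose from 5.75 ± 1.29 to 11.96 ± 1.42 CPM (log2 1.04 ± 0.15, adjusted p = 3.1e-04).

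The alpha-arrestins guide the uptake of membrane proteins, and TXNIP, the best known, limits glucose uptake and binds thioredoxin. TXNIP read 64.6, 71.7 and 68.9 CPM after GO, 16.6, 22.2 and 20.7 CPM after GO–Rg3 and 20.2, 20.9 and 19.4 CPM in untreated cells. GO lay above the other 2 groups, which shared a range (log2 -1.79 ± 0.13, adjusted p = 3.5e-07). ARRDC2 read 6.97, 6.31 and 6.25 and 0.730, 0.354 and 0.257 CPM (log2 -3.85 ± 0.27, adjusted p = 3.5e-07) and ARRDC3 44.6, 68.4 and 69.1 and 24.5, 29.6 and 26.5 CPM (log2 -1.18 ± 0.16, adjusted p = 1.4e-04). These 3 of the 4 members tested were called lower (75.0%, beside 2.07% of all genes), each with any 1 library left out. The list's median was -1.48.

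Stress-response lists gave smaller differences. Of 13 targets of ATF4, the factor of amino acid shortage, 5 passed as lower (38.5%, beside 6.25% of all genes) and none as higher. Their list's median was -0.52 (-0.64 without GO–Rg3 replicate 1 to -0.31 without GO replicate 1, and -0.21 with an offset for GC content). CHAC1, which breaks down glutathione, fell from 17.9 ± 2.62 to 5.98 ± 1.87 CPM (log2 -1.57 ± 0.19, adjusted p = 5.6e-05), ASNS, asparagine synthetase, from 73.3 ± 7.38 to 38.3 ± 2.59 CPM (log2 -0.94 ± 0.11, adjusted p = 4.8e-05), and SESN2, a sensor of leucine, from 67.0 ± 7.66 to 37.5 ± 6.89 CPM (log2 -0.84 ± 0.13, adjusted p = 3.3e-04). Of 11 heat shock genes 5 passed as higher (45.5%, beside 7.33% of all genes), with a median of 0.41. The 5 became 1 in the fit of the 6 samples alone. HSPH1 rose from 173 ± 19.0 to 316 ± 18.2 CPM (log2 0.87 ± 0.11, adjusted p = 7.8e-05), HSP90AA1 from 1393 ± 206 to 2259.9 ± 318 CPM (log2 0.70 ± 0.13, adjusted p = 0.0013), and HSPA8, the most abundant, from 2186 ± 124 to 3207 ± 146 CPM (log2 0.55 ± 0.09, adjusted p = 6.0e-04). DNAJB1, a co-chaperone, rose by log2 0.43 ± 0.08, adjusted p = 0.0017, and missed the threshold without GO replicate 3 (adjusted p = 0.012); the 5 then became 3. None of 15 chaperones of the endoplasmic reticulum passed, and CALR, the most abundant, read 1449 ± 20.04 and 1376 ± 30.3 CPM. Among 22 immediate early genes and ERK feedback genes 2 passed as higher and 5 as lower, with a median of -0.23 (-0.15 with an offset for GC content). These were 9.09% and 22.7%, beside 7.33% and 6.25% of all genes. The transcription factors EGR1 and FOS fell from 17.7 ± 2.63 and 16.4 ± 1.39 CPM to 5.51 ± 0.508 and 6.43 ± 0.814 CPM (log2 -1.68 ± 0.14, adjusted p = 1.9e-06 and log2 -1.36 ± 0.14, adjusted p = 1.4e-05), FOSL2 by log2 -0.88 ± 0.11, adjusted p = 6.4e-05, while SPRY2, an inhibitor of ERK signalling, rose by log2 0.89 ± 0.15, adjusted p = 7.1e-04. Without GO–Rg3 replicate 3, or with library totals, the 5 became 3. The fit of the 6 samples alone gave 0 as higher and 3 as lower.

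**Figure D5:**
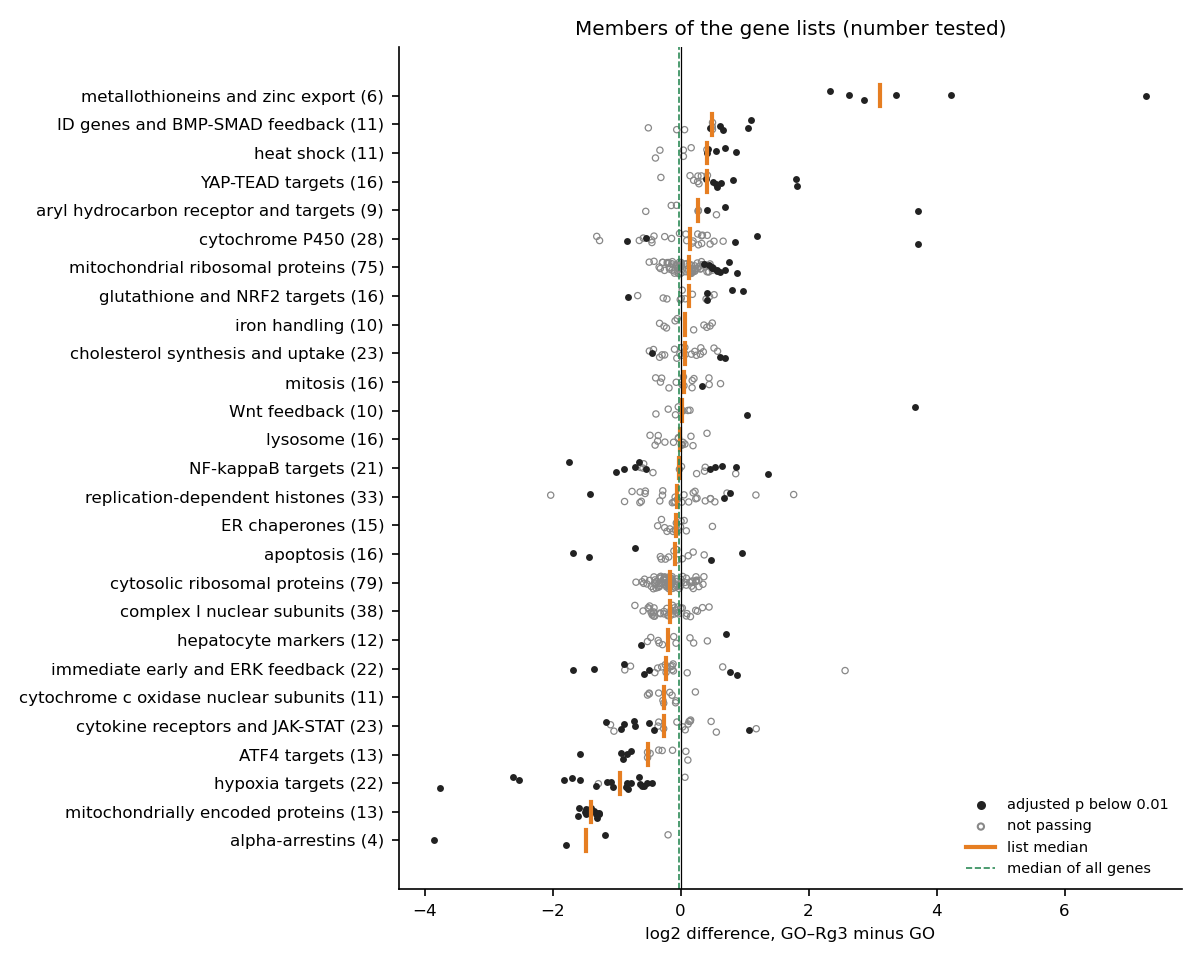
Log2 difference of GO–Rg3 from GO (x axis) for the members of 27 of the 29 gene lists, ordered by median. Filled points passed at an adjusted p under 0.01 and open points did not, orange bars are list medians, and the dashed line is the median of all genes (-0.02). The metallothionein list lies at the top with 6 of 6 members passing as higher, and the hypoxia, mitochondrially encoded and alpha-arrestin lists lie at the bottom. Of the metallothioneins, MT1M had no count after GO and passed the filter through other groups alone, GO–Rg3 among them.

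Inflammatory genes did not move in 1 direction. Of 21 targets of NF-kappaB, 5 passed as higher and 6 as lower (23.8% and 28.6%, beside 7.33% and 6.25% of all genes). The median of the 21 was -0.02 (-0.20 without GO replicate 1 to 0.05 without GO replicate 3, and -0.04 with an offset for GC content). The chemokine CXCL1 read 22.8, 18.9 and 16.7 CPM after GO, 47.1, 53.2 and 49.4 CPM after GO–Rg3 and 29.6, 30.6 and 30.6 CPM without material. GO–Rg3 lay above GO (log2 1.36 ± 0.11, adjusted p = 1.5e-06) and above untreated cells (log2 0.72 ± 0.11, adjusted p = 0.0082, which missed the threshold in 6 of 9 fits without 1 library, at adjusted p up to 0.066). CXCL5, the most abundant member, rose from 482 ± 60.7 to 701 ± 61.8 CPM (log2 0.54 ± 0.14, adjusted p = 0.0094), but missed the threshold without GO replicate 1, 2 or 3 or GO–Rg3 replicate 2 or 3 (adjusted p up to 0.036) and with an offset for GC content (log2 0.26, adjusted p = 0.036). On the lower side, LCN2, an iron-binding lipocalin, read 3.88, 2.03 and 2.12 CPM after GO and 0.757, 0.804 and 0.798 CPM after GO–Rg3 (log2 -1.74 ± 0.30, adjusted p = 8.6e-04), with GO replicate 1 the highest. NFKB2, the p100 subunit, fell from 129 ± 25.1 to 70.3 ± 16.8 CPM (log2 -0.88 ± 0.15, adjusted p = 0.0011), and the acute-phase protein SAA1 from 8.78 ± 3.12 to 4.34 ± 0.553 CPM (log2 -1.003 ± 0.22, adjusted p = 0.0037), but missed the threshold without GO–Rg3 replicate 1, 2 or 3 (adjusted p up to 0.012). The 5 became 2 without GO replicate 2, without GO replicate 3 or without GO–Rg3 replicate 3, and 3 without GO–Rg3 replicate 2. The 6 became 3 without GO–Rg3 replicate 3 and with library totals. In the fit of the 6 samples alone, 1 member passed as higher and 1 as lower.

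Of 23 cytokine receptors and JAK-STAT genes, 7 passed as lower and 1 as higher, with a median of -0.26 (-0.11 with an offset for GC content). These were 30.4% and 4.35%, beside 6.25% and 7.33% of all genes. The 1 became 2 without GO replicate 1 and 3 without GO replicate 2. IL2RG, the receptor chain common to several interleukins, read 6.93, 5.14 and 6.11 CPM after GO and 3.11, 2.35 and 2.62 CPM after GO–Rg3 (log2 -1.16 ± 0.16, adjusted p = 2.2e-04), and ICOSLG, a ligand of T-cell costimulation, 31.3, 23.6 and 25.4 and 17.1, 10.1 and 14.6 CPM (log2 -0.93 ± 0.16, adjusted p = 9.6e-04). The groups of neither gene overlapped. IL6R fell from 25.2 ± 2.19 to 13.6 ± 0.508 CPM (log2 -0.89 ± 0.12, adjusted p = 1.1e-04), CSF3R, the receptor of granulocyte colony-stimulating factor, from 19.6 ± 0.742 to 11.9 ± 1.86 CPM (log2 -0.71 ± 0.12, adjusted p = 8.7e-04), and IL17RA by log2 -0.42 ± 0.10, adjusted p = 0.0061. IL17RA missed the threshold without GO replicate 1 or 3 or GO–Rg3 replicate 2 or 3 (adjusted p up to 0.033) and with an offset for GC content (log2 -0.23, adjusted p = 0.016). IFNGR1, a chain of the interferon gamma receptor, rose from 34.2 ± 4.66 to 71.8 ± 13.5 CPM (log2 1.07 ± 0.17, adjusted p = 4.3e-04). The differences of IL4R (log2 -0.34 ± 0.10, adjusted p = 0.023), CSF1 (log2 -0.35 ± 0.13, adjusted p = 0.059), IL7 (log2 -1.04 ± 0.30, adjusted p = 0.018) and C5AR1 (log2 -1.09 ± 0.43, adjusted p = 0.069) did not pass, the first 2 did so without GO–Rg3 replicate 1 (adjusted p = 0.0041 and 0.0054) and IL7 without GO replicate 1 (adjusted p = 0.0049). IL7 and C5AR1 were at most 1.21 CPM in every GO and GO–Rg3 sample. The 7 became 4 with library totals and 2 in the fit of the 6 samples alone.

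Glutathione and NRF2 targets defend the cell against oxidants. Of 16 tested 4 passed as higher and 1 as lower (25.0% and 6.25%, beside 7.33% and 6.25% of all genes), and 7 passed as higher under DESeq2. The median of the 16 was 0.13 (0.09 without GO replicate 3 to 0.26 without GO replicate 1, and 0.07 with an offset for GC content). GCLM, the regulatory subunit of the enzyme that starts glutathione synthesis, read 60.9, 87.5 and 84.4 CPM after GO, 139.9, 165 and 153 CPM after GO–Rg3 and 164, 167 and 156 CPM without material. The groups did not overlap (log2 0.98 ± 0.12, adjusted p = 9.1e-05). ME1, which supplies NADPH, rose from 39.5 ± 5.97 to 69.2 ± 5.78 CPM (log2 0.81 ± 0.11, adjusted p = 2.2e-04), and GSR, glutathione reductase, from 253 ± 33.3 to 338 ± 3.78 CPM (log2 0.41 ± 0.10, adjusted p = 0.0073), but missed the threshold without GO replicate 1 or 3 or GO–Rg3 replicate 1, 2 or 3 (adjusted p up to 0.026). SLC7A11, the cystine importer, fell from 46.2 ± 6.66 to 26.2 ± 3.37 CPM (log2 -0.82 ± 0.12, adjusted p = 3.0e-04). GCLC, the catalytic partner of GCLM (log2 0.45 ± 0.13, adjusted p = 0.019), and MGST1, a membrane glutathione transferase (log2 0.40 ± 0.10, adjusted p = 0.011), did not pass, and did without GO–Rg3 replicate 1 (adjusted p = 0.0068 and 0.0022); MGST1 also did without GO replicate 1 (adjusted p = 0.0079). The glutaredoxins GLRX and GLRX2 differed by log2 0.03 (95% CI -0.26 to 0.31) and log2 0.07 (95% CI -0.20 to 0.35). SOD2, the mitochondrial superoxide dismutase and a member of the NF-kappaB list, read 633, 722 and 736 CPM after GO, 452, 526 and 462 CPM after GO–Rg3 and 311, 304 and 303 CPM without material. It stood below GO (log2 -0.54 ± 0.10, adjusted p = 0.0013, missing the threshold without GO–Rg3 replicate 3 (adjusted p = 0.010)) and above untreated cells (log2 0.65 ± 0.10, adjusted p = 0.0082, missing the threshold in 7 of 9 fits without 1 library, at adjusted p up to 0.066). The 4 higher members became 2 without GO replicate 3 or GO–Rg3 replicate 3.

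Genes of cell death were split. Of 16 tested, 2 passed as higher and 3 as lower (12.5% and 18.75%, beside 7.33% and 6.25% of all genes). The median of the 16 was -0.08 (-0.17 without GO–Rg3 replicate 1 to -0.08 without GO replicate 3, and -0.01 with an offset for GC content). The 2 became 1 without GO replicate 3 or GO–Rg3 replicate 3. BID, a BH3-only protein cut by caspases, rose from 39.9 ± 2.95 to 55.7 ± 1.57 CPM (log2 0.48 ± 0.10, adjusted p = 0.0024), but missed the threshold without GO replicate 3 or GO–Rg3 replicate 3 (adjusted p up to 0.016). BIK and BBC3, BH3-only proteins that promote death, fell from 2.66 ± 0.833 and 4.17 ± 1.58 CPM to 0.810 ± 0.0792 and 1.51 ± 0.650 CPM (log2 -1.69 ± 0.27, adjusted p = 5.8e-04 and log2 -1.42 ± 0.31, adjusted p = 0.0041), and CASP10, an initiator caspase, from 39.1 ± 0.310 to 23.8 ± 2.07 CPM (log2 -0.72 ± 0.10, adjusted p = 2.9e-04). BBC3 missed the threshold without GO replicate 1 or GO–Rg3 replicate 2 or 3 (adjusted p up to 0.017).

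Of 12 hepatocyte markers 1 passed as higher and 1 as lower (8.33% each). Of 23 genes of cholesterol synthesis and uptake 2 passed as higher and 1 as lower (8.70% and 4.35%). Both lists lay near the 7.33% and 6.25% of all genes, so neither stood out. Among the 12 hepatocyte markers, AFP, the fetal serum protein that hepatoma cells make, rose from 5836 ± 1128 to 9540.0 ± 1221 CPM (log2 0.71 ± 0.16, adjusted p = 0.0059), and HNF4A, a hepatocyte transcription factor, fell from 563 ± 15.6 to 367 ± 47.2 CPM (log2 -0.62 ± 0.11, adjusted p = 0.0015). AFP missed the threshold without GO replicate 1 or 3 or GO–Rg3 replicate 2 or 3 (adjusted p up to 0.026) and HNF4A without GO–Rg3 replicate 3 (adjusted p = 0.010). IDI1, an isomerase of cholesterol synthesis, passed as higher (log2 0.70 ± 0.14, adjusted p = 0.0023) and missed the threshold without GO replicate 3 or GO–Rg3 replicate 3 (adjusted p up to 0.012). None of 10 iron genes, of 16 lysosomal genes or of the 6 markers of other cells tested passed, and of 16 mitosis genes 1 did, as higher, though none did without GO replicate 2 or 3 or GO–Rg3 replicate 2 or 3. Without GO–Rg3 replicate 1, 3 lysosomal genes passed as lower. The most abundant of the first 2 lists, FTL and PSAP, read 4218 ± 1181 and 849 ± 71.3 CPM after GO and 3622 ± 362 and 949.6 ± 68.0 CPM after GO–Rg3. Of 33 replication-dependent histone genes 2 passed as higher and 1 as lower (6.06% and 3.03%, below the shares of all genes). The 2 became 1 in each fit without 1 library except that without GO–Rg3 replicate 1. Histone transcripts of this kind mostly lack a poly(A) tail. Among 404 ZNF zinc finger genes, 23 passed as higher (5.69%) and 16 as lower (3.96%), beside 7.33% and 6.25% of all genes. These counts were 13 and 10 without GO–Rg3 replicate 2, 11 and 6 without GO–Rg3 replicate 3, 17 and 5 without GO replicate 3, 24 and 2 with library totals, 39 and 28 with an offset for GC content, 43 and 21 with a replicate block, and 1 and 2 in the fit of the 6 samples alone. ZNF395, which fell furthest among those that passed, went from 61.4 ± 1.404 to 30.7 ± 1.399 CPM (log2 -0.999 ± 0.09, adjusted p = 4.2e-06).

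A few genes differed between GO–Rg3 and untreated cells. The largest called differences with non-overlapping groups and a mean of at least 1 CPM were falls of CYP1A1, ID3, NDUFA4 and DKK1, described above, beside 1 pseudogene, and rises of SH3TC2 and C6orf222. SH3TC2, a protein of endosomal recycling, read 4.07, 4.41 and 3.59 CPM after GO, 3.76, 2.70 and 3.35 CPM after GO–Rg3 and 1.53, 1.53 and 1.46 CPM without material. Both materials lay above untreated cells and overlapped each other, at log2 -0.30 (95% CI -0.64 to 0.05) between them and 1.12 ± 0.18, adjusted p = 0.0090 for GO–Rg3 against untreated. C6orf222 read 5.33, 5.08 and 5.38, 1.32, 1.61 and 1.62 and 0.556, 0.639 and 0.565 CPM in the same order. GO–Rg3 lay between the others, at log2 -1.79 ± 0.15, adjusted p = 1.5e-06 against GO and log2 1.37 ± 0.19, adjusted p = 0.0053 against untreated cells. The rises over untreated cells missed the threshold without any 1 of the untreated samples, at adjusted p up to 0.083 for SH3TC2 and 0.053 for C6orf222, and also in 4 and 1 fits that left out a GO or GO–Rg3 sample.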

How the data were processed

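RNA of 12 Huh7 samples in 4 groups of 3 was sequenced by the authors from a stranded mRNA kit, mapped to GRCh37 and counted per gene with featureCounts (per the submitters' processing notes). The deposited values are raw counts for 63677 genes; annotation release and strand setting are not given in the sources used here. A gene stayed in if 3 or more samples gave it 10 or more counts, and libraries were scaled by TMM. All 12 samples were fitted in 1 model with the quasi-likelihood test of edgeR 4.0.16 (R 4.3.3), without a replicate block, and p-values were adjusted over 17092 genes. The study's methods used DESeq2 and the same thresholds (adjusted p under 0.01, absolute log2 above 1). The fit was tested on simulated counts.

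Genes are named by a rule: the 12 largest rises and falls among called genes with non-overlapping groups and a mean of at least 5 CPM, up to 4 passing members of each of 29 lists with its most abundant member, genes the study discusses, and the 5 largest differences each way from untreated cells. Lists were defined by symbol. Members and lists were chosen with earlier results of these data known. Some items are not reported here. The most abundant list members without a pass are given as levels only or left out, and some weaker passing members are given by count only; this was chosen after their values were seen. Promoters are RefSeq's (GRCh38.p14). GC content, overlaps and coordinates came from an annotation lifted to GRCh37.

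Alternatives were RLE scaling, library totals, scaling without mitochondrial genes, no filter, 10 counts in every sample, DESeq2 1.42.0, a replicate block, a GC offset (loess, span 0.5) with and without the block, the 6 samples alone, each sample left out, and other thresholds. Tables were made with Python 3.11.15, pandas 2.3.3 and matplotlib 3.10.9.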

Additional observations from a re-analysis of the deposited data

How the results depend on the processing

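The count of genes higher after GO–Rg3 was 120 and that of genes lower was 353. They were 220 and 231 with library totals, 153 and 436 without a filter, 76 and 204 with the 6 samples alone, 172 and 533 at an adjusted p under 0.05, 42 and 99 at an adjusted p under 0.0001, and 1253 and 1068 without a fold threshold. Leaving out 1 library gave 77 to 198 higher and 257 to 392 lower. The other settings kept both counts within 1.5 times: DESeq2 called 128 and 359, and the GC offset 100 and 302.

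The replicate block gave 131 higher and 390 lower. Same-numbered GO and GO–Rg3 samples correlated in their deviations from the group means at 0.20, 0.23 and 0.03 (other pairs -0.21 to 0.06). The values for replicates 1 and 2 lay above those of all other pairs, but GO replicate 3 correlated best with GO–Rg3 replicate 2. So few pairs cannot decide whether samples of equal number belong together, and the main fit does not pair them.

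Of the 94 genes whose difference from GO was computed under each setting, 84 passed, none of these 84 changed sign, and 64 passed in every fit without 1 library. Signs turned for 3 genes near 0, and the cause was not tested. GLRX was -0.12 with the GC offset, -0.12 with that offset and the replicate block, and -0.073 to 0.16 with 1 library left out. GLRX2 was -0.022 and -0.018 with these offsets, and -0.029 to 0.17 with 1 library left out. NDUFA4 was -0.27 and -0.23 with the same offsets, -0.017 at 10 counts in every sample, and -0.13 to 0.28 with 1 library left out. Against untreated cells, SOD2 (adjusted p = 0.022) and SH3TC2 (adjusted p = 0.011) missed the threshold with library totals, and NDUFA4 (adjusted p = 0.012) at 10 counts in every sample.

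Of the 22 gene lists with a passing member, 19 had fewer in the fit of the 6 samples alone, 16 had more under DESeq2 and 16 had more with the replicate block. Replicates were not equally close in each group. The chi-square per gene between 2 replicates ran from 2.98 to 5.84 in untreated cells, 13.2 to 155 after GO and 18.7 to 61.7 after GO–Rg3. The main fit takes its spread from all 12 samples, also from groups that are not compared, and what this does to its p-values was not tested. Low counts limit the precision of MT1M, MT1E, IL7 and C5AR1. Groups of 3 are too small for a test of outlying samples, and 1 dose and 1 time were compared.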
